A study of Rattus norvegicus with 6 samples.

Results

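The transcripts of 10 genes of transforming growth factor beta (TGF-beta), activin and SMAD signalling were followed in pancreatic islets of 12-month-old and 3-month-old rats. The genes were *Tgfb1*, *Tgfb2*, *Tgfb3*, *Inhba*, *Tgfbr1*, *Tgfbr2*, *Smad2*, *Smad3*, *Smad4* and *Smad7*. They were found by matching the RefSeq mRNA accession of each array probe, without its version, to these symbols, and all 10 were found among 13888 genes with such a probe. Each of the 10 had 1 probe, printed on 1 spot. The islets came from untreated male Wistar rats, from 3 rats of each age, and were freed from the pancreas by collagenase digestion. Total RNA of the islets was hybridised to 1-colour Agilent arrays, with 3 arrays per age, for a comparison of young with older animals. An islet is a mixture of hormone-secreting beta, alpha, delta and PP cells with vessels, connective tissue cells, nerve and immune cells, and collagenase digestion also leaves exocrine tissue. Whole islets were measured, so fewer cells of a type and less RNA per cell cannot be told apart in any of the results.

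TGF-beta ligands and activins are secreted dimers that bind a pair of serine/threonine kinase receptors. A type II receptor phosphorylates a type I receptor, which phosphorylates the receptor-regulated SMAD2 and SMAD3. These join the common partner SMAD4, enter the nucleus and act with other factors on target genes, among them the gene of SMAD7, which inhibits the type I receptor. Bone morphogenetic proteins (BMPs) use the same SMAD4 with SMAD1, SMAD5 and SMAD9. In the pancreas these ligands are known for roles in endocrine differentiation, beta cell growth and function, and in the activation of stellate cells and deposition of matrix.

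Values are normalised signals in log2 units, so that 1 unit is a factor of 2, and a difference is always 12 months minus 3 months. The insulin, glucagon and somatostatin transcripts *Ins1*, *Ins2*, *Gcg* and *Sst* lay between 17.68 and 18.86 on every array. The share of all probes well above background was 59.5% to 64.2% on the 12-month arrays and 73% to 77.4% on the 3-month arrays. Negative control spots read 89.5 to 91 scanner units at 12 months and 29.5 to 31 at 3 months. Each age was scanned separately, in 1 scan, and an effect of scanning cannot be told apart from one of age.

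Between the ages the common *Smad4* and the inhibitory *Smad7* rose and the ligand *Tgfb3* fell. *Tgfb2*, *Tgfbr1* and *Smad2* were measured on all arrays and did not pass the test. *Tgfb1* was well above background on 2 arrays, both of 12 months, and *Inhba*, *Tgfbr2* and *Smad3* on no array. Thus 6 of the 10 genes entered the test, for which a probe had to be well above background on 3 or more of the 6 arrays, and 3 of these 6 passed an adjusted p of 0.05 (limma, Benjamini-Hochberg over all tested probes). In the same test 8.37% of 17941 probes passed, 5.32% higher and 3.05% lower at 12 months. The same 3 genes passed the threshold that the study used, which takes an unadjusted p under 0.05 together with a more than 2-fold difference. Of all probes 22.0% passed it, 10.1% higher and 11.9% lower. For an unadjusted p under 0.05 alone the share of all probes is not given, but it cannot be below 22.0%. The groups of arrays did not overlap for 5 of the 6 tested genes, 4 higher and 1 lower at 12 months, and for 39.1% of all probes, 16.5% higher and 22.6% lower. The median difference was 0.70 over the 6 genes and -0.17 over all tested probes.

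**Figure D1:**
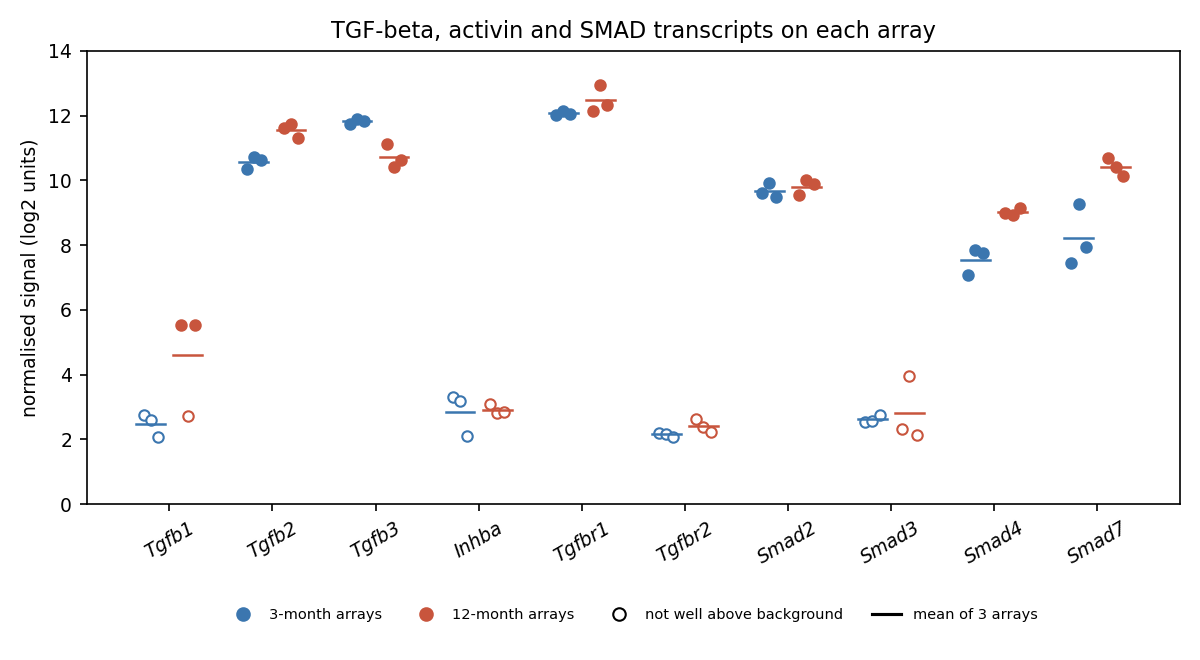
Normalised signal in log2 units (y axis) of the 10 genes (x axis) on each of the 3 arrays of 3 months and 3 arrays of 12 months, with horizontal lines at the mean of 3 arrays and open circles where the probe was not well above background. *Smad4* and *Smad7* lie higher and *Tgfb3* lies lower on every 12-month array than on any 3-month array, while *Inhba*, *Tgfbr2* and *Smad3* stay below 4 units on all arrays.

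Among the ligands, *Tgfb3* fell. On the 12-month arrays it was at 11.11, 10.42 and 10.61, and on the 3-month arrays at 11.75, 11.90 and 11.84. The 3-month arrays lay close together and above all 12-month arrays, whose spread was wider. The means were 10.71 ± 0.36 at 12 months and 11.83 ± 0.07 at 3 months (SD, n = 3). *Tgfb3* thus fell by 1.11 on the log2 scale (limma SE 0.26, adjusted p 0.0493), and was 2.16-fold higher in the younger islets. The call sat at the edge of the threshold and was lost when any 1 array was left out, with adjusted p-values of 0.0742 to 0.135. The difference kept its sign in these fits, from -1.31 to -0.97.

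*Tgfb2*, which encodes a second ligand for the same receptors, had values of 11.61, 11.75 and 11.29 at 12 months and of 10.33, 10.73 and 10.62 at 3 months. Every 12-month array lay above every 3-month array, the reverse of the order seen for *Tgfb3*. The difference was 0.99 (limma SE 0.25, 95% interval 0.40 to 1.58), and its adjusted p of 0.0561 missed the threshold. It passed under 6 of 19 alternative settings, with differences of 0.87 to 1.15 over all of them.

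*Tgfb1*, the ligand best known from fibrosis and immune regulation, was near background. Its values were 5.52, 2.73 and 5.54 at 12 months and 2.74, 2.61 and 2.08 at 3 months. It was well above background on the first and the last of these 12-month arrays, and the other 12-month array lay within the range of the 3-month arrays. The 12-month mean was 4.60 ± 1.62 (SD, n = 3). No 3-month array and only 2 of the 3 12-month arrays measured the gene well above background, so no fold is given. The gene was on too few arrays for the test across probes, and the groups overlapped, with an exact two-sided permutation p of 0.2.

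*Inhba* encodes the beta A subunit, which forms activin A as a homodimer. Its probe lay between 2.83 and 3.08 at 12 months and between 2.10 and 3.31 at 3 months, and the scanner marked it as well above background on 0 of 6 arrays. No fold is given for it.

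The RefSeq start regions of the pair of ligands that were measured on all arrays are shown to set the 2 genes side by side, with 250 bases before and 50 bases after the annotated start, 5′ to 3′ on the strand of the gene, in assembly GRCr8. Capitals mark CpG dinucleotides. *Tgfb2* lies at chr13:100792636-100792935 and *Tgfb3* at chr6:111456897-111457196, both on the minus strand. The start that the table uses lies 542 bases inside the gene for *Tgfb2* and 700 bases inside for *Tgfb3*, counted from the outermost start annotated in the same assembly, so neither window holds that outer start.
Tgfb2: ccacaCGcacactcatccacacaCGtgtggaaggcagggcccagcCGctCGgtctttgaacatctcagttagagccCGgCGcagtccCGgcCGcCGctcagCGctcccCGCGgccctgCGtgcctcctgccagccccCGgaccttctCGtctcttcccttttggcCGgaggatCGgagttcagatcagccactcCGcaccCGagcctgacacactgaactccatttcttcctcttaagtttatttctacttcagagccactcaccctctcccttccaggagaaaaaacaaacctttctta
Tgfb3: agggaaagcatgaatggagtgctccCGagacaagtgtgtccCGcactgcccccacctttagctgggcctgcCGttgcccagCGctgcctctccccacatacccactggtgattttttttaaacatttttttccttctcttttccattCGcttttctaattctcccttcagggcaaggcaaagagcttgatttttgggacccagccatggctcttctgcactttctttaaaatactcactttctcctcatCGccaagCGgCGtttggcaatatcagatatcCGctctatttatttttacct
The *Tgfb2* window held 19 CpG with 59.0% G and C, and the *Tgfb3* window 9 CpG with 47.7%. Over 33469 windows of this length the median was 7 CpG and 51.7%. The windows of the other genes ranged from 1 CpG for *Smad4* to 52 for *Smad2*, which has 2 windows in the table, and *Smad7* had 40. The starts used for *Inhba* (6434 bases), *Smad2* (552 and 787), *Tgfbr2* (272) and *Tgfbr1* (50) also lie inside the gene, counted in the same way. The palindromic SMAD-binding motif GTCTAGAC was in 0 of the 11 windows of the 10 genes and in 0.197% of all windows. The shorter motif CAGACA, searched on both strands, was in the window of *Inhba* alone and in 21.1% of all windows, and the AP-1 motif TGANTCA was in 0 of 11 and in 7.33%. The GC box GGGCGG, also on both strands, was in 6 of the 11 windows, among them those of *Smad2*, *Smad3*, *Smad7* and both receptors, and in 33.1% of all windows. These matches describe the letters of the windows and were not related to the signals.

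Of the receptors, *Tgfbr1* encodes the type I kinase ALK5 and *Tgfbr2* the type II kinase that binds TGF-beta. *Tgfbr1* was at 12.15, 12.96 and 12.34 on the 12-month arrays and at 12.02, 12.14 and 12.04 on the 3-month arrays. The groups did not overlap, but the lowest 12-month array and the highest 3-month array were nearly equal. The difference of 0.41 was not called (limma SE 0.28, adjusted p 0.335, 95% interval -0.25 to 1.08), and it was not called under any of 19 alternatives. The probe of *Tgfbr2* lay between 2.24 and 2.64 at 12 months and between 2.08 and 2.21 at 3 months, not well above background on any array. No level of *Tgfbr2* relative to *Tgfbr1* can be read from this, since signals of different probes were not compared.

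*Smad4*, the partner shared by the TGF-beta, activin and BMP branches, rose. Its values were 8.99, 8.93 and 9.15 at 12 months and 7.06, 7.84 and 7.75 at 3 months. The 12-month arrays lay close together, and all lay more than a unit above the highest 3-month array. The means were 9.02 ± 0.11 and 7.55 ± 0.43 (SD, n = 3). They differed by 1.47 or 2.78-fold (limma SE 0.28, adjusted p 0.0302). The call held when the second array of either age was left out, with adjusted p-values of 0.0423 without that of 12 months and 0.0474 without that of 3 months. It was lost without 12-month array 1 (0.115), 12-month array 3 (0.0964), 3-month array 1 (0.0745) or 3-month array 3 (0.0701), where the difference was between 1.23 and 1.57.

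*Smad7*, which blocks the type I receptor and is itself a target of the pathway, had the largest difference of the tested members. It was at 10.70, 10.41 and 10.14 on the 12-month arrays and at 7.44, 9.26 and 7.94 on the 3-month arrays. The second 3-month array was more than a unit above the other two and still below every 12-month array. The means were 10.41 ± 0.28 and 8.21 ± 0.94 (SD, n = 3). They differed by 2.20 or 4.60-fold (limma SE 0.48, adjusted p 0.0417), with a 95% interval of 1.06 to 3.35. Of the fits that left out 1 array, the call held only without 3-month array 2, where the difference was 2.73 (adjusted p 0.0189). In the other 5 it was between 1.81 and 2.34, with adjusted p-values of 0.0575 to 0.143.

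The receptor-regulated SMADs of this branch gave no call. *Smad2* was at 9.55, 9.998 and 9.88 at 12 months and at 9.61, 9.91 and 9.48 at 3 months, so that the groups overlapped. Its difference was 0.14 (limma SE 0.25, adjusted p 0.712, 95% interval -0.45 to 0.74), and with array weights its sign turned, to -0.029. *Smad3* lay between 2.14 and 3.95 at 12 months and between 2.54 and 2.74 at 3 months, and on 0 of 6 arrays was its probe well above background.

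For each of the called genes *Smad4*, *Smad7* and *Tgfb3*, as for *Tgfb2* and *Tgfbr1*, the exact two-sided permutation p was 0.1, the smallest that 3 arrays against 3 allow. The choice of scaling did not change their direction. With each array shifted to a common 75th percentile instead of quantile normalisation, the median of all probes moved to -0.40, and the differences were 1.37 for *Smad4*, 2.12 for *Smad7* and -1.22 for *Tgfb3*. Relative to the median of all probes they were then 1.77, 2.52 and -0.82, against 1.64, 2.37 and -0.94 with quantile normalisation. Before normalisation the probe of *Tgfb3* read 1434 to 4353 scanner units at 12 months and 960 to 4706 at 3 months, so the groups overlapped for it before scaling. *Smad4* read 559 to 1056 and 51.7 to 236, and *Smad7* read 1065 to 3362 and 64.1 to 548, without overlap.

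**Figure D2:**
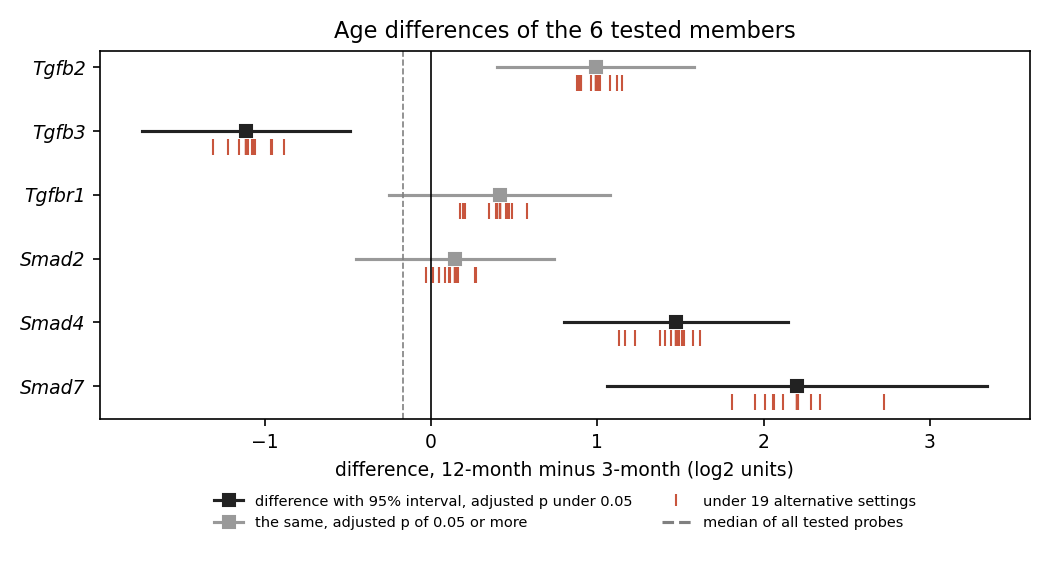
Differences of the 6 tested genes (y axis) in log2 units, 12 months minus 3 months (x axis), with 95% intervals from limma, red ticks for 19 alternative settings and a dashed line at the median of all tested probes, -0.17. The ticks of *Smad4*, *Smad7*, *Tgfb2* and *Tgfb3* each stay on 1 side of 0, and those of *Smad2* lie on both sides.

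The other SMADs were read as part of lists of pathway genes. The BMP-regulated *Smad1* rose from 5.87, 6.64 and 7.64 at 3 months to 9.35, 10.05 and 9.93 at 12 months. The lowest 12-month array lay well above the highest 3-month array. The difference was 3.06 (limma SE 0.47, adjusted p 0.0177) or 8.35-fold. *Smad5*, of the same BMP branch, was at 6.46, 7.81 and 6.87 at 3 months and at 9.38, 9.35 and 8.88 at 12 months. It rose by 2.16 (limma SE 0.39, adjusted p 0.0263), again without overlap. The third BMP-regulated gene, *Smad9*, differed by -0.48 (limma adjusted p 0.272, 95% interval -1.15 to 0.19), and *Smad6*, the inhibitory SMAD of the BMP branch, by -0.33 (limma adjusted p 0.388, 95% interval -0.94 to 0.27). Of 8 SMAD genes in all, 7 were tested, 4 rose and 0 fell at the adjusted threshold, against 8.37% of all probes, 5.32% higher. None of the 4 passed with either replicate block, with the 4 arrays that share a name ending or with the methods' t-test, plain or paired, where at most 2.42% of all probes passed. Whether the changes of *Smad1*, *Smad4*, *Smad5* and *Smad7* differ from those of the other SMAD genes was not tested.

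**Figure D3:**
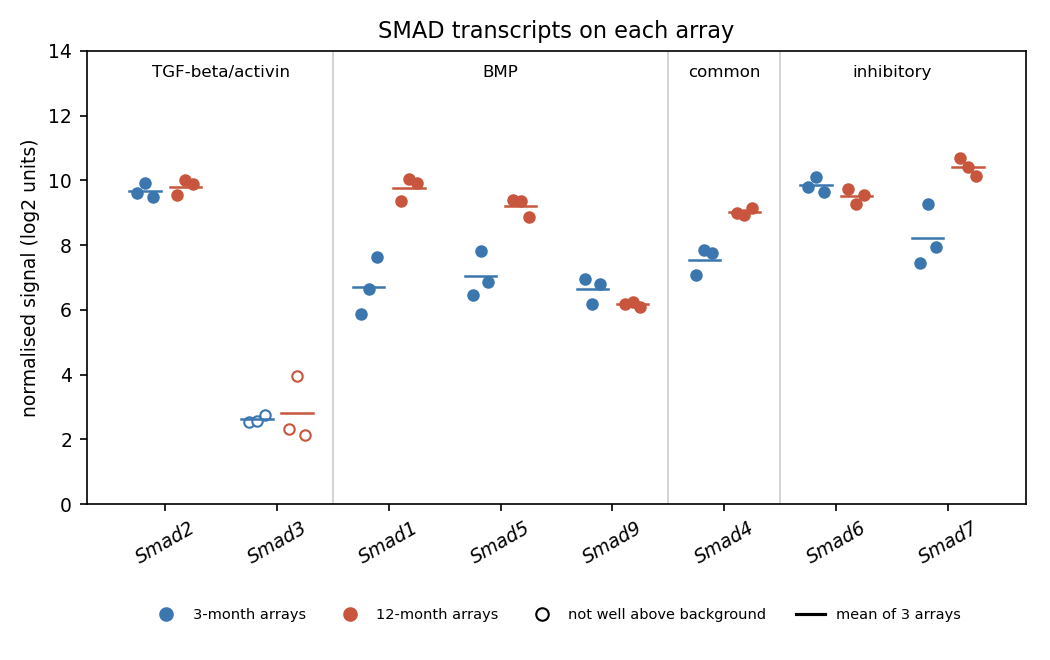
Normalised signal in log2 units (y axis) of 8 SMAD genes (x axis), grouped by the branch they serve, on each of the 3 arrays of 3 months and 3 arrays of 12 months, with lines at the mean of 3 arrays and open circles where the probe was not well above background. *Smad1*, *Smad5*, *Smad4* and *Smad7* lie higher on every 12-month array than on any 3-month array, and *Smad2*, *Smad9* and *Smad6* overlap between the ages.

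Beyond the 10 genes, 6 lists held 90 other genes of the TGF-beta superfamily pathway, of which 67 had a probe and 56 were tested. At the adjusted threshold 4 of the 56 rose and 0 fell, against 7.86% of 11188 tested genes in all, 4.88% higher and 2.98% lower. At the threshold of the study 11 were called higher and 0 lower, against 19.4% of all genes. With the 75th percentile shift the latter counts were 11 and 2, without 12-month array 1 they were 8 and 4, and without 3-month array 3 they were 9 and 3. The share of all genes is not given for these settings, so these counts cannot be set against it. The median difference of the 56 genes was 0.35.

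Besides *Smad1* and *Smad5*, the genes that rose were *Bambi* and *Ppm1a*. *Bambi* encodes a decoy receptor that resembles a type I receptor without its kinase and dampens TGF-beta and BMP signals. It was at 11.29, 11.29 and 11.32 on the 12-month arrays and at 8.60, 9.54 and 7.11 on the 3-month arrays. The 12-month arrays were almost equal, while the 3-month arrays spread over more than 2 units below them. The rise was 2.88 (limma SE 0.58, adjusted p 0.0341). *Ppm1a*, a phosphatase known to act on phosphorylated SMAD2 and SMAD3, was at 10.20, 9.58 and 10.55 at 12 months and at 8.03, 8.32 and 7.62 at 3 months, without overlap. It rose by 2.12 (limma SE 0.34, adjusted p 0.0193). Each of the 4 calls was lost without 12-month array 1, without 12-month array 3 and without 3-month array 1, with adjusted p-values of 0.0504 to 0.115. Those of *Smad5* and *Ppm1a* were also lost without 3-month array 3 (0.0841 and 0.0609).

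Of 8 tested genes among 17 other ligands, 0 passed the adjusted test in limma and 2 had an unadjusted p under 0.05, with a median difference of -0.41. The lowest p was that of *Inha*, the alpha subunit that turns activin subunits into inhibins, at 11.08, 11.44 and 10.96 at 12 months and 12.05, 11.62 and 12.32 at 3 months. Its groups did not overlap, with lower values at 12 months, and the difference of -0.84 did not pass (limma SE 0.28, adjusted p 0.101). Of 6 tested genes among 11 other receptors, 0 passed and 0 had an unadjusted p under 0.05 in limma, with a median of 0.37. *Acvr1c*, which encodes the activin and nodal type I receptor ALK7, had the lowest p, with values of 8.63 to 8.84 at 12 months and 7.07 to 8.52 at 3 months. The difference was 0.91 (limma SE 0.39, adjusted p 0.157). The methods' t-test, plain or paired, also gave 0 adjusted calls in both lists, and at an unadjusted p under 0.05 it gave 2 and 0 ligands and 0 and 0 receptors.

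The decoy receptor *Bambi* was listed with the extracellular binding proteins and not with the receptors. Of the 18 genes in that list 10 were tested, 1 rose (*Bambi*) and 3 passed the threshold of the study (19.4% of all genes did), with a median of 0.75. The other 2 were the matrix proteins *Dcn*, which binds TGF-beta, at 1.39 (limma adjusted p 0.0734), and *Fbn1*, whose microfibrils hold latent TGF-beta, at 1.92 (limma adjusted p 0.0522). Among 20 intracellular regulators 12 were tested, 1 rose (*Ppm1a*) and 4 passed the threshold of the study, with a median of -0.19. These included the corepressor *Tgif1* at 1.22, the coactivator *Crebbp* at 1.11 and the deubiquitinase *Usp15* at 1.75, with limma adjusted p-values of 0.0763, 0.111 and 0.113. *Usp15* was well above background on 1 of 3 arrays at 12 months and on 2 of 3 at 3 months, so that its difference rests in part on signals near background. Of the 12 regulators 6 lay above 0 and 6 below. Their groups did not overlap for 4 higher and 4 lower genes, against 39.1% of all genes. Among the lower were *Tab1* at -0.91 and *Pmepa1* at -0.86, with limma adjusted p-values of 0.0623 and 0.0807. *Dcn*, *Fbn1*, *Tgif1*, *Crebbp*, *Usp15*, *Tab1*, *Pmepa1* and *Postn* fall outside the naming rule and were picked out after their values were seen.

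Genes known as targets of TGF-beta or BMP signals were read to set the pathway beside its output. Of 20 listed, 16 were tested and 0 passed the adjusted test in limma, 2 with an unadjusted p under 0.05, and the methods' t-test gave 0 adjusted calls. The median difference was 0.49, with 10 above 0 and 6 below. The lowest p was that of the fibrillar collagen *Col3a1*, at 15.39, 14.04 and 13.94 at 12 months and 12.51, 13.29 and 12.52 at 3 months. Its groups did not overlap, and the difference of 1.68 missed the adjusted threshold (limma SE 0.46, adjusted p 0.0670). *Postn*, a matrix protein, was the other target past the threshold of the study, with a difference of 2.06 (limma adjusted p 0.1405).

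**Figure D4:**
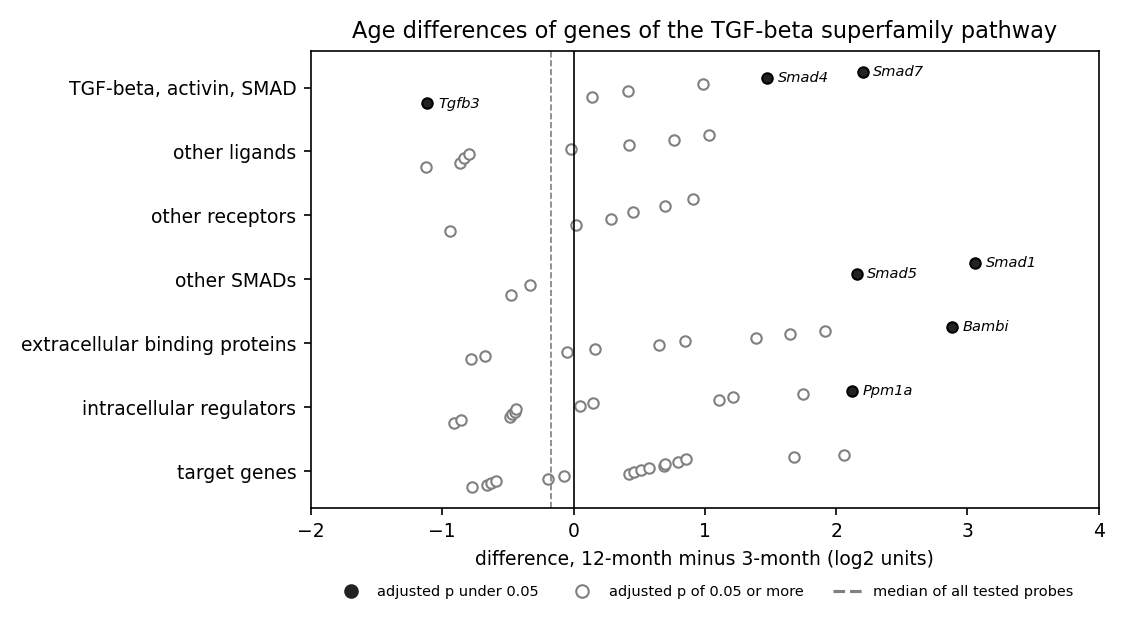
Differences in log2 units, 12 months minus 3 months (x axis), of the tested genes of the 10 genes and of 6 lists of other pathway genes (y axis), each circle a gene, filled where the adjusted p was under 0.05, with a dashed line at the median of all tested probes, -0.17. The 7 filled circles are *Tgfb3* at -1.11 and *Smad4*, *Smad7*, *Smad1*, *Smad5*, *Bambi* and *Ppm1a* between 1.47 and 3.06.

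Markers of islet and other cells were read beside these results. Of stellate and mesenchymal markers 6 of 8 were tested, 5 lay above 0 with a median of 1.09, and *Pdgfrb* rose by 1.68 (limma adjusted p 0.0453), a call that held in 2 of the 6 fits with 1 array left out. *Cspg4*, the 1 tested marker of this list below 0, was picked out after its values were seen. It was lower on every 12-month array, with a difference of -0.92 (limma adjusted p 0.0561). The summed level of the 6 markers with a value on all arrays was 12.26 to 13.10 at 12 months and 11.89 to 12.40 at 3 months, so that the ages overlapped. These are not the 6 tested markers, since they leave out *Des* and include *Thy1*, which was well above background on 1 array. With *Des*, the largest term of the sum, which had no value on 3-month array 3, the sums were 13.95 to 14.43 and 12.12 to 13.60. The value of 12.12 is 3-month array 3 summed without *Des*, so it cannot be set against the other arrays. The part of this in the rises of the pathway genes was not tested. Of endothelial markers 4 were tested, 3 lay below 0 with a median of -0.86, and 0 passed the adjusted test in limma (3 with an unadjusted p under 0.05), with summed levels of 14.82 to 15.58 and 15.68 to 16.04. These 3 did not move one way, since *Pecam1* was higher at 12 months by 1.23 while *Cdh5* and *Tek* were lower. *Cdh5* was well above background on 0 of 3 arrays at 12 months and on 3 of 3 at 3 months. It thus entered the test only through the 3-month arrays, and its limma difference of -2.11 was -0.50 with normexp. Of Schwann and glial markers 4 were tested and all lay below 0, with a median of -0.97. The 5 markers with a value on all arrays summed to 10.48 to 10.91 at 12 months and 11.09 to 11.60 at 3 months. *Sox10* fell by 2.08 (limma adjusted p 0.0335, fitted on 5 arrays since 3-month array 1 had no value, and called in 1 of 6 fits with 1 array left out), and 2 of the 6 Schwann markers were not well above background on any array. Whether these 2 lists had a part in the fall of *Tgfb3* was not tested.

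Among endocrine markers other than those of beta cells, 6 were tested and 6 lay above 0, with a median of 0.38 and summed levels of 19.78 to 19.94 and 19.45 to 19.59, and the delta cell factor *Hhex* rose by 1.68 (limma adjusted p 0.0236), called in 2 of 6 fits with 1 array left out. The beta cell list had 5 tested markers, a median of 0.098 and summed levels of 19.92 to 20.12 and 19.66 to 19.88. In the beta cell, acinar, duct, immune and red blood cell lists 0 genes passed the adjusted test in limma, with 1, 0, 0, 0 and 1 at an unadjusted p under 0.05. The medians of the last 4 were 0.097, 0.055, -0.062 and -0.66 over 7, 3, 7 and 3 tested markers. Their summed levels at 12 and 3 months overlapped.

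The profile of *Smad4*, the member with the lowest p, was compared with those of 11135 other genes over the 6 arrays, each centred on its own mean. The closest were *Ndfip2*, with a mean absolute difference of 0.086 log2 units per array, *Abhd17b* with 0.10 and *Jpt2* with 0.11. *Ndfip2* was at 10.88, 10.99 and 10.94 at 12 months and at 9.04, 9.75 and 9.83 at 3 months. As in *Smad4*, the 12-month arrays lay together and 3-month array 1 was the lowest, which follows from how the gene was chosen.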

How the data were processed

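Islet RNA was measured on 6 arrays, grouped by the age in the labels. The scanner files deposited by the authors give the intensity of each spot from Agilent Feature Extraction 11.0.1.1, as their headers state, without normalisation between arrays. The authors also deposited a table of quantile-normalised log2 values for 12145 probes, used as an alternative.

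Background-subtracted signals were put on the log2 scale, averaged over a probe's spots without outlier flags, and quantile normalised over 24684 probes. Probes well above background on at least 3 of 6 arrays were kept (17944). Of these 68 lacked a value on an array, 17941 were tested, and 0 spots were saturated. limma 3.58.1 in R 4.3.3 was used for the age comparison (lmFit and eBayes, two-sided, no block), with Benjamini-Hochberg adjustment. Of 15321 RefSeq mRNA probes 14274 were named through a table of assembly GRCr8. For several probes of a gene the brightest was used. Arrays have no read depth, and their number limits the precision. The methods' t-test was run plain and paired. The labels number 2 of the 3 12-month arrays, so the third pair was formed by elimination. The limma and t-test p-values set the age difference against the spread between arrays of the same age. They do not separate age from scan.

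The members, the lists of pathway genes and the 9 marker lists were chosen with earlier results of these data known. The rule named all members, up to 4 called genes of each pathway list or the gene with the lowest p, 4 hormones, and the 3 genes closest to the member with the lowest p. The fit was tested on simulated data of 17876 probes: of 200 changed 2-, 4- or 8-fold, 0%, 46% and 77.5% were recovered. Alternatives were another scaling, normexp on median spot and background signals, the table of the authors, other filters, variance models, array weights estimated gene by gene, replicate blocks, 4 arrays with a shared name ending, and each array left out.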

Additional observations from a re-analysis of the deposited data

How the results depend on the processing

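Of 28 age differences of single genes, 27 kept their direction under every alternative that gave a value, and *Smad2* was at -0.029 with array weights. For 15 of them, named outside the rule, the alternatives were run after seeing the data. List medians and marker sums were not recomputed. Of the members 3 passed the adjusted threshold. The count was 0 with the replicate block of numbered pairs, with the replicate block of 3 pairs, with the 4 arrays that share a name ending and with the methods' t-test, plain or paired, where limma or the t-test gave 3 or 4 at an unadjusted p under 0.05. Of all probes 0%, 0.541%, 0%, 2.42% and 0.00558% passed in these settings, against 8.37%. The member count was 0 to 2 with 1 array left out. It was 4 with normexp, the table of the authors, no filter, probes above background on all 6 arrays, trend and robust variances, and array weights. Of all probes 10.5%, 9.0%, 9.48%, 12.6%, 11.3% and 22.6% passed in these settings. At the threshold of the study the member count was 2 to 4 with 1 array left out. With normexp and array weights it was 2, without *Tgfb3* (-0.96 and -0.88). With numbered pairs it was 3, all higher. Of the other pathway genes 4 passed the adjusted threshold. The count was 7 with normexp (5 higher, 2 lower), 8 with no filter, 8 with trend and robust variances, 10 with array weights, and 0 with both blocks (11 and 13 unadjusted), the 4 arrays (10) and both t-tests (13 and 6). Of all probes 10.5%, 9.48%, 11.3% and 22.6% passed with the first 4 of these. The count of these pathway genes was 0 to 6 with 1 array left out. Shares of all probes at an unadjusted p are not given for these settings, so the unadjusted counts cannot be set against them. At the threshold of the study the 11 pathway genes became 18 with array weights, 4 with the paired t-test, and between 7 and 16 when 1 array was dropped. For the alternatives the shares of all probes at that threshold are not given, nor those at the adjusted threshold with 1 array left out. These counts of members and pathway genes thus cannot be set against all probes. Why the counts changed between settings was not tested for any of them. *Smad4* passed under 10 of 19 alternatives, *Smad7* under 9, *Tgfb3* under 8 and *Tgfb2* under 6. Deviations from the age means correlated across probes at -0.0105 for number 1, -0.311 for number 2 and -0.26 for the third pair, formed by elimination. No pair correlated positively, but with 3 arrays per age these values cannot decide whether samples were handled in pairs. The supplement of the study names a paired t-test. The higher background at 12 months limits what can be said of *Tgfb1*, *Inhba*, *Tgfbr2* and *Smad3*. Scan could not be fitted as a block because each age lies in 1 scan.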
